A study of Mus musculus with 6 samples.

Results

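Gene expression in mouse embryonic stem (ES) cells that carry the NcGFP knock-in was compared with that in wild type cells by pooling all 4 knock-in arrays of the series against its 2 wild type arrays, so that 6 of 6 arrays were used. The knock-in arrays are 2 of the heterozygous genotype NcGFP ki/+ and 2 of the homozygous genotype NcGFP ki/ki, and the wild type is the ES cell line W4. What NcGFP stands for is not written in the labels. Here it is taken, from knowledge of the study, for a fusion of N-cadherin and green fluorescent protein that replaces E-cadherin in its own locus, Cdh1. All cells grew in serum with LIF (leukaemia inhibitory factor), on what the growth label calls a diluted EMFI plate, read here as a thinned layer of embryonic fibroblast feeders. The series design text states 2 independent experiments per genotype. Whether 1 or more clones stand behind a knock-in genotype is not given in the sources used here, so the allele, the clone and the time in culture cannot be told apart.

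E-cadherin holds ES cells together in compact colonies, and binds catenins inside the cell. LIF and serum keep ES cells near the naive state of the early embryo, while autocrine FGF4 and the ERK kinases push them towards the primed state of the later epiblast. N-cadherin is the cadherin that many cells turn to when they leave an epithelium.

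Intensities were made by the authors with GCRMA and are given here as log2 values. A probe set was used when it exceeded log2 4 in at least 2 arrays, which kept 37950 of 45101 probe sets. Each of 16706 genes was then represented by its kept probe set of highest mean. A probe set or gene is called shared when all 4 knock-in arrays lie on the same side of both wild type arrays. Its gap is the log2 distance between the nearest knock-in and wild type arrays. Values of single arrays are given in the order ki/+ replicates 1 and 2, ki/ki replicates 1 and 2, wild type replicates 1 and 2. Differences are knock-in mean minus wild type mean on the log2 scale with the standard error (SE) of limma's fit, over 4 and 2 arrays.

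Some values of the arrays moved with the groups or set single arrays apart. On average the 3 controls for 18S ribosomal RNA read 4.23 log2 higher in the knock-in arrays than in wild type, and no other control was apart by more than 1. Of the 64 control probe sets, 5 were higher in all 4 knock-in arrays, those for 18S among them, and 13 lower, with gaps down to -0.32. The 3 prime minus 5 prime difference of the Tfrc controls was 2.45, 2.15, 2.19 and 2.46 against 1.96 and 2.00. For Actb and Gapdh that difference overlapped between the groups. What part such control values have in the gene differences was not tested, and how samples were prepared cannot be told apart from genotype here. The 28 feeder fibroblast markers had medians of -1.51, -0.68, -0.20 and 1.24 against the wild type mean in the 4 knock-in arrays, so ki/ki replicate 2 held the most fibroblast signal and ki/+ replicate 1 the least. The summed intensity of the 9 measured defining fibroblast markers was 4064, 6490, 8817 and 24999 in the knock-in arrays and 8956 and 10363 in wild type. In bulk samples, fewer cells of a type and less RNA per cell cannot be told apart. The Y-linked gene Eif2s3y stood at 9.49 and 9.13 in ki/+ replicate 1 and ki/ki replicate 2 and at 4.60 to 5.33 in the other arrays, wild type included. The ES cell label was borne out by its markers, whose median was between 11.98 and 12.74 in every array.

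**Figure D1:**
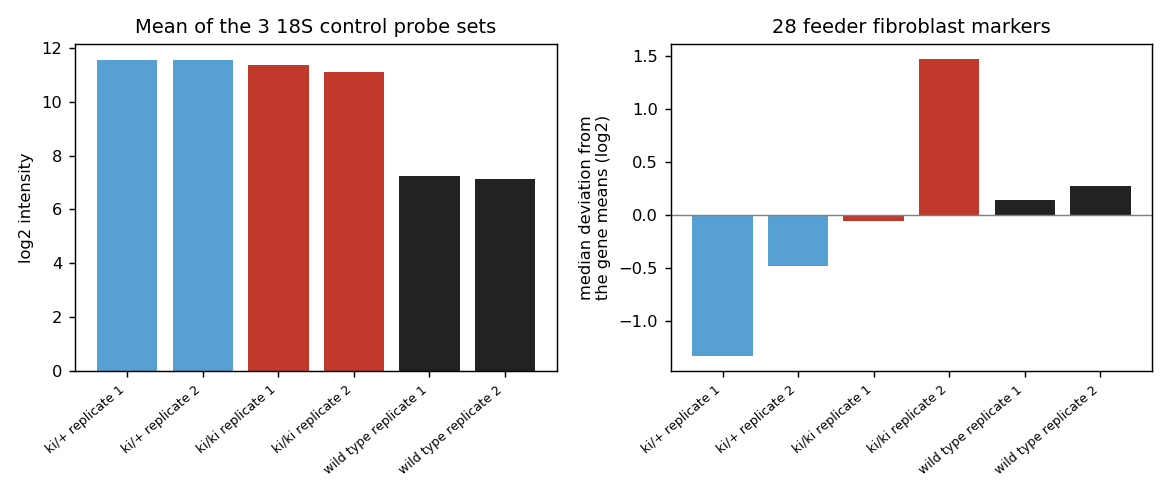
Mean log2 intensity of the 3 control probe sets for 18S ribosomal RNA (left) and the median deviation of 28 feeder fibroblast markers from each gene's mean over the arrays (right), 1 bar per array. The 18S controls separate all 4 knock-in arrays from wild type, by 4.23 log2 on average, whereas the feeder markers run from -1.33 in ki/+ replicate 1 to 1.48 in ki/ki replicate 2 with wild type in between.

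The pooled comparison gave many differences shared by all 4 knock-in arrays, of which few were large. Of the 37950 probe sets, 3666 (9.66%) were higher in all 4 knock-in arrays and 3867 (10.2%) lower. There are 15 ways to choose 4 of 6 arrays. With no difference between groups, 1 in 15 probe sets is therefore expected to be higher in all 4, and as many lower. Many of the shared probe sets can thus arise from the order of the arrays alone, and the excess was not tested. A gap above 0.5 was left to 168 (0.443%) and 210 (0.553%), and a gap above 1 to 15 (0.0395%) and 19 (0.0501%). By gene, 1616 (9.67%) were higher and 1606 (9.61%) lower, with 67 (0.401%) and 91 (0.545%) at a gap above 0.5.

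By limma with Benjamini-Hochberg adjustment over all kept probe sets, 0 (0.0%) passed an adjusted p of 0.05, and the smallest adjusted p was 0.0677, for Hmgn5. Without adjustment, p was below 0.05 for 1510 probe sets higher (3.98%) and 1821 lower (4.8%). With 4 arrays against 2, an exact two-sided permutation test of a single gene cannot go below 0.133. The p values measure the spread between these arrays. That spread was uneven: the root mean square SD over probe sets was 0.340 among the 4 knock-in arrays (0.391 in ki/ki and 0.234 in ki/+) and 0.122 between both wild type arrays.

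The count of calls differed widely between settings. Without ki/ki replicate 2, 502 probe sets passed, 171 higher (0.451%) and 331 lower (0.872%), and 162 passed once the median of the feeder markers was a covariate, 77 higher (0.203%) and 85 lower (0.224%). Weighting arrays by how closely they follow the mean of their group gave 2264 calls, 885 higher (2.33%) and 1379 lower (3.63%). The weight was 0.21 for ki/ki replicate 2 and 2.42 for each wild type array. Both wild type weights are equal by design, as the 2 arrays lie equally far from their mean. All 3 settings called 135 probe sets, every one of them shared by the 4 knock-in arrays. Of 16 alternative settings, these gave the most calls. They use the same arrays whose gaps chose genes named below, so a call in them is no independent support. Without either wild type array 0 probe sets passed. The words higher and lower below describe the position of the arrays and do not mean a call.

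**Figure D2:**
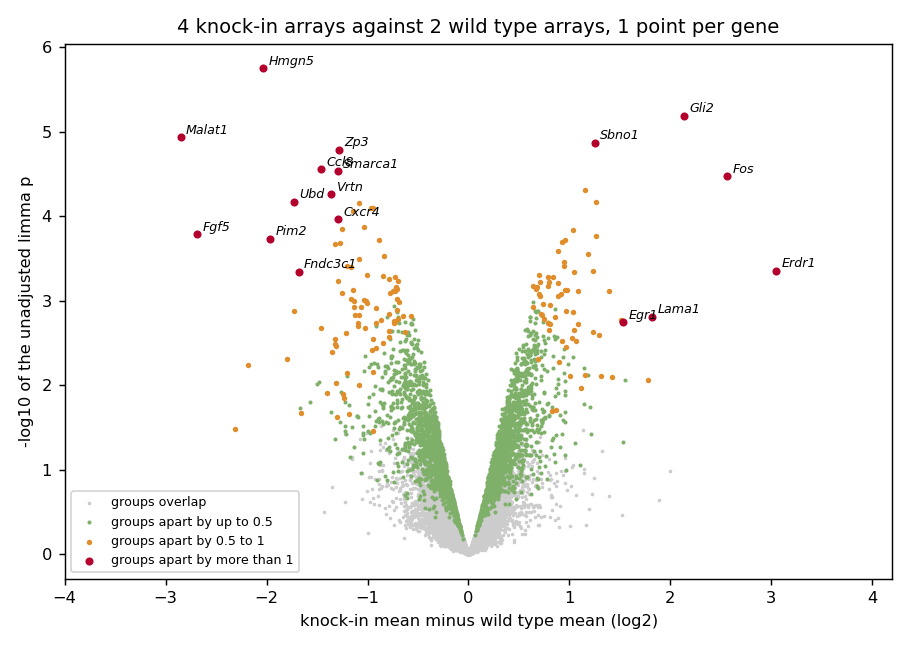
Difference between the knock-in and wild type means (log2, horizontal) against -log10 of the unadjusted limma p (vertical), 1 point for each of 16706 genes, coloured by the gap between the groups. Of the 17 genes named, with a gap above 1, 6 (0.0359% of all genes) lie to the right (Fos, Erdr1, Gli2, Lama1, Sbno1 and Egr1) and 11 (0.0658%) to the left, with Malat1, Fgf5 and Hmgn5 farthest out on that side.

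Among the genes higher in the knock-in arrays, the immediate early gene Fos had the widest gap, with Egr1 and Egr2 also among the 15. Fos, a subunit of AP-1 that cells switch on within minutes of a growth factor or stress, had values of 11.35, 10.76, 10.61 and 11.56 against 8.61 and 8.41. All 4 knock-in arrays were well above wild type, with no order by gene dose. The difference was 2.56 (SE 0.28, adjusted p = 0.0953 by limma), a 5.92-fold difference with a gap of 2.00. Egr1, a zinc finger factor downstream of ERK, stood at 11.86, 11.92, 11.60 and 12.82 against 10.58 and 10.46. Its relative Egr2 stood at 6.75, 6.82, 6.66 and 8.07 against 5.71 and 5.59. In both, ki/ki replicate 2 was the highest array, and the other knock-in arrays lay within 0.32 of each other. Differences were 1.53 (SE 0.32, adjusted p = 0.226) for Egr1 and 1.42 (SE 0.39, adjusted p = 0.336) for Egr2, and the second Egr2 probe set gave 1.06. Fos, Egr1 and Egr2 were each called without ki/ki replicate 2, with the feeder covariate and with array weights. Those calls come from the same arrays as the gaps.

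As a list, the immediate early genes were split. Of 26 measured, 8 (30.8%) were higher in all 4 knock-in arrays and 3 (11.5%) lower, beside 9.67% and 9.61% of all genes, and 0 passed the adjusted threshold. Unadjusted p was below 0.05 for 6 higher and 3 lower members, beside 668 higher (4.0%) and 750 lower (4.49%) of all genes. The median difference was 0.13, beside 0.00 over all genes, and it was -0.15 without ki/ki replicate 2. Medians by knock-in array were -0.33, -0.15, 0.00 and 1.04, so the array with the most feeder signal was also the one where the list was high. Jund, an AP-1 subunit of the Jun family, was lower at 9.89, 9.35, 9.70 and 9.78 against 10.37 and 10.29. It was chosen after its values were seen.

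Erdr1, known for its location at the pseudoautosomal end of the sex chromosomes, had the largest mean difference in this direction. It stood at 11.88, 11.01, 12.66 and 12.90 against 8.86 and 9.27, with both ki/ki arrays above both ki/+ arrays. The difference was 3.04 (SE 0.50, adjusted p = 0.172), though a second probe set of the gene gave 0.23. Between ki/ki and ki/+, 0 (0.0%) probe sets passed an adjusted p of 0.05, and of the genes named here 0 did, so no ordering by gene dose passed a test. Without adjustment, p was below 0.05 for 2311 probe sets higher in ki/ki (6.09%) and 1588 lower (4.18%), and for 6 of the 34 (17.6%) with a gap above 1.

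Gli2, a transcription factor that carries Hedgehog signals, had the smallest adjusted p of the 15 genes on this side. Its values were 9.51, 9.51, 9.55 and 9.01 against 7.17 and 7.34, with ki/ki replicate 2 a little below the other knock-in arrays. The difference was 2.14 (SE 0.19, adjusted p = 0.0739), a 4.41-fold difference, and the second probe set gave 1.64. Of the 15 measured genes of the Hedgehog pathway, 1 was higher in all 4 arrays (Gli2) and 1 lower (Gli1), with a median of -0.01. That is 6.67% in each direction, beside 9.67% higher and 9.61% lower of all genes. Gli1, in other settings the standard target of the pathway, stood at 7.53, 7.45, 7.15 and 7.16 against 7.95 and 7.92.

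Other genes high on this side came from separate processes. Lama1, a laminin chain of basement membranes, stood at 7.16, 8.01, 6.55 and 6.86 against 5.23 and 5.42. All 4 knock-in arrays were higher, but they spread over more than 1 log2, and the difference of 1.82 had an SE of 0.37 (adjusted p = 0.225). Sbno1 was far tighter, at 10.26, 10.17, 10.21 and 10.21 against 8.87 and 9.06. The difference was 1.25 (SE 0.12, adjusted p = 0.0788). Of its 4 other probe sets, 1 was also higher in all 4 arrays (0.60, gap 0.51) and the rest overlapped, with differences of -0.19 to 0.08. Probe sets of Nipbl, which loads cohesin onto DNA, also disagreed: its leading probe set was higher by 1.26 and its others by -0.18 to 0.44.

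Mael, a germline gene of the piRNA pathway, was among the more variable of the 15 at 7.21, 6.65, 8.23 and 6.23 against 5.33 and 5.27. The 6 remaining genes by gap were Uri1 (1.15), Cobl (1.27, an actin nucleator), Accsl (1.23), Ccser2 (1.09), Tet2 and Esf1 (0.96), with the difference of the leading probe set in parentheses. Other probe sets overlapped between the groups for Cobl (0.33), Ccser2 (-0.005 and 0.17) and Esf1 (0.07, with the remaining one higher at 0.62). All 3 of Uri1 were higher. Tet2, which oxidises methylated cytosine, is described with its enzyme family below. The last gene taken, Esf1, had a gap of 0.77, and the next, Pex11a, 0.76.

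**Figure D3:**
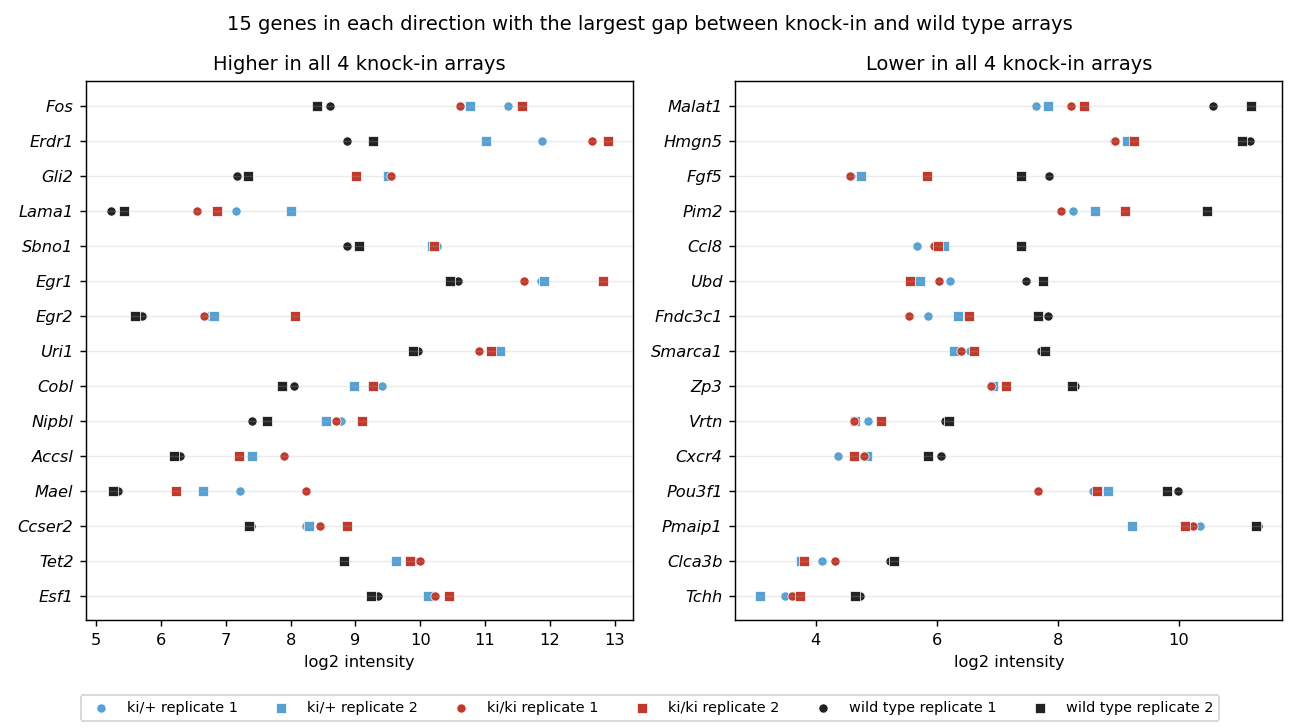
Log2 intensity in each of the 6 arrays for the 15 genes with the largest gap in each direction, ordered by gap from the top. Black points are wild type, blue ki/+ and red ki/ki. Fos shows the widest gap on the left (2.00) and Malat1 on the right (-2.14). Of the knock-in arrays, ki/ki replicate 2 lies nearest to wild type in Fgf5 and Pim2, among other genes on the right.

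Among the genes lower in the knock-in arrays, the nuclear long noncoding RNA Malat1 had the widest gap. Its leading probe set stood at 7.65, 7.84, 8.22 and 8.43 against 10.57 and 11.20. The difference was -2.85 (SE 0.27, adjusted p = 0.0788), which is 7.21-fold lower. Malat1 had 7 kept probe sets: 3 were lower in all 4 arrays, by -2.85, -2.92 and -1.95, and the other 4 differed by -0.34 to 0.01 with groups that overlapped. Probe sets of this transcript therefore disagreed. Of 21 measured long noncoding RNAs, 0 were higher and 4 (19%) lower in all 4 arrays, beside 9.67% and 9.61% of all genes, with a median of -0.30. Mirg, from the imprinted Dlk1-Dio3 region, was lower by -1.09, Firre by -0.71 and Ftx by -0.98.

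Hmgn5, an X-linked protein that binds nucleosomes and loosens compact chromatin, had the smallest adjusted p of all probe sets. Values were 8.94, 9.15, 8.95 and 9.27 against 11.18 and 11.04, so all knock-in arrays lay within 0.33 of each other. The difference was -2.04 (SE 0.15, adjusted p = 0.0677), which is 4.10-fold lower. It was the only probe set called after a further quantile normalization, and it was called in all 3 settings above. The other measured members of the family overlapped between groups, with differences of -0.02 for Hmgn1 and -0.18 for Hmgn3.

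Fgf5, the growth factor that marks the primed epiblast, stood at 4.58, 4.75, 4.56 and 5.85 against 7.86 and 7.39. Knock-in arrays were near the filter's minimum except ki/ki replicate 2. The difference was -2.69 (SE 0.38, adjusted p = 0.129), and it was -1.24 by the second probe set. Pou3f1, the POU factor Oct6 of the primed state, stood at 8.59, 8.83, 7.67 and 8.65 against 9.99 and 9.81, and all 4 arrays were lower by 0.98 or more. Both of its probe sets were lower, by -1.46 (SE 0.31, adjusted p = 0.231) and -1.22.

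The primed epiblast list had the largest shift of the lists described here. Of 16 measured genes, 10 (62.5%) were lower in all 4 arrays and 0 higher, beside 9.61% and 9.67% of all genes. The median difference was -0.55, and by array it was -0.28, -0.43, -0.63 and -0.58. At an unadjusted p below 0.05 there were 7 lower and 0 higher, and 0 passed the adjusted threshold. Sall2, a zinc finger factor, was lower by -1.32, and Wnt8a, a ligand of the epiblast, by -0.51. Wnt8a was near the filter's minimum, at 4.56, 4.64, 4.56 and 4.47 against a wild type mean of 5.07.

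Of 21 measured genes of the naive state, 4 (19%) were higher in all 4 arrays and 0 lower, beside 9.67% and 9.61% of all genes. The median difference was 0.30, and ki/ki replicate 2 alone had -0.03. Fgf4, the ligand that drives ERK in ES cells, stood at 10.99, 11.34, 11.92 and 10.71 against 10.17 and 10.01. It differed by 1.15 (SE 0.31, adjusted p = 0.334), and all 4 of its probe sets were higher in all 4 arrays. Nr0b1, an orphan nuclear receptor, was higher by 0.56, Klf4 by 0.64 and Tdgf1, a Nodal coreceptor, by 0.40.

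Leading probe sets of several pluripotency regulators overlapped between the groups. Pou5f1 differed by -0.03 and Sox2 by 0.01, both with arrays of the knock-in on either side of wild type. Nanog differed by 0.49. Esrrb differed by -0.18 in its leading probe set and by 0.03 in another, whereas its remaining probe set was lower in all 4 arrays by -0.94 (gap -0.50). Zfp42 stood at 11.96, 9.78, 10.08 and 11.80 against 9.99 and 9.86, with 1 array of each knock-in genotype high and 1 at the wild type level. These were the same 2 knock-in arrays in which Eif2s3y was high. The 7 core pluripotency genes had a median of 0.01, with 1 (14.3%) higher and 1 (14.3%) lower in all 4 arrays, beside 9.67% and 9.61% of all genes.

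Of 15 measured FGF and ERK feedback genes, 1 (6.67%) was higher (Fgf4) and 3 (20%) were lower in all 4 arrays, beside 9.67% and 9.61% of all genes. The median of -0.28 was not shared by all 4 knock-in arrays, which had -0.20, -0.31, -0.46 and 0.04. Dusp4, a phosphatase that turns ERK off and is induced by it, stood at 7.63, 7.49, 7.43 and 8.99 against 9.40 and 9.37, with ki/ki replicate 2 close to wild type. The difference of -1.50 had an SE of 0.43 (adjusted p = 0.348). The receptor Fgfr1 was lower by -0.91 and the feedback inhibitor Spry2 by -0.25, though another Spry2 probe set was higher in all 4 arrays by 0.25.

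Members of the Nodal pathway were split. Of 18 measured, 3 (16.7%) were higher and 4 (22.2%) lower in all 4 arrays, beside 9.67% and 9.61% of all genes, with a median of -0.11. Foxh1, the DNA-binding partner of SMAD2 and SMAD3, stood at 8.17, 7.70, 7.53 and 7.94 against 8.79 and 8.94, and its 3 probe sets were all lower. The Nodal inhibitor Lefty1 stood at 10.86, 10.27, 9.13 and 10.20 against 11.62 and 11.40, with the lowest value in ki/ki replicate 1. Its relative Lefty2 was lower by -1.14 (SE 0.49, adjusted p = 0.579), and the receptor Acvr2b by -0.47.

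The integrated stress response and serine synthesis genes were the list with the largest share of higher members. In this response, phosphorylation of the initiation factor eIF2 slows translation while the factor ATF4 is made, and ATF4 switches on genes of amino acid supply. Of 30 measured, 18 (60.0%) were higher in all 4 knock-in arrays and 1 lower, beside 9.67% and 9.61% of all genes. The median difference was 0.32, with 0.50, 0.18, 0.42 and 0.47 in the 4 knock-in arrays, 0.28 without ki/ki replicate 2, and 26 of the 30 were above 0. An unadjusted p below 0.05 was reached by 13 higher and 0 lower members, and 0 passed the adjusted threshold. Promoters of 4 members that the results turn on are shown next, to place the response element of ATF4 and its partners in them. They are the 250 bases before the gene start in RefSeq, build GRCm38.p6, read 5′ to 3′ on the gene's strand, with matches to the letters TGATGNAA on either strand in capitals.

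Chac1: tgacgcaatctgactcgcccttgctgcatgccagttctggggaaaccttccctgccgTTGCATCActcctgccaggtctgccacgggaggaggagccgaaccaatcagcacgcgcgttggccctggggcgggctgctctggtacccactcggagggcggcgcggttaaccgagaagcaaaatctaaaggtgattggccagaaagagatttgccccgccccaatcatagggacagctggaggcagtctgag
Asns: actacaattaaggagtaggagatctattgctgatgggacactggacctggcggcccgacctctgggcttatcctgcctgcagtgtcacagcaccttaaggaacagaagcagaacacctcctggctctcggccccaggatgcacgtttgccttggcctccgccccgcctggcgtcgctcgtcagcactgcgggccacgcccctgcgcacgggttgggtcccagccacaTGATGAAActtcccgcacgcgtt
Trib3: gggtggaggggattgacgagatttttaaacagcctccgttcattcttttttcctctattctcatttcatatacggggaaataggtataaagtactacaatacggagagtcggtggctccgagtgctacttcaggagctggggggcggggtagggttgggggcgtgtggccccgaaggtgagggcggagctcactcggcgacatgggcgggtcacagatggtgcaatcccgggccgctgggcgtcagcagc
Atf3: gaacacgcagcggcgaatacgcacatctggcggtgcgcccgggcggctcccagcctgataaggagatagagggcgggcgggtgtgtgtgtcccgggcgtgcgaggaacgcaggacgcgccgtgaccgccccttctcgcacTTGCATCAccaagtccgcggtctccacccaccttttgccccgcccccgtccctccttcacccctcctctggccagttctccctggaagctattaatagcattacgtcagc

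These windows lie at chr2:119350992-119351241 on the + strand for Chac1, and on the - strand at chr6:7693210-7693459 for Asns, chr2:152344061-152344310 for Trib3 and chr1:191183334-191183583 for Atf3. The match starts 193 bases before the gene start in Chac1, 23 in Asns and 110 in Atf3. Trib3 has none of these letters in the window. The motif was found in 8 of the 27 list members with a promoter in the table (29.6%), and in 6 of the 16 that were higher in all 4 arrays (37.5%). It was found in 366 of 13315 measured genes with a promoter (2.75%) and in 1056 of all 27025 (3.91%). The list was made of genes of this response, so a share above that of all genes can come from how it was made. A match is a description of the letters and not a site shown to be bound. No other motif was searched.

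Chac1, which degrades glutathione and is a target of ATF4, had the largest gap of the list. It stood at 9.22, 8.02, 8.94 and 8.69 against 7.31 and 7.11. The difference was 1.51 (SE 0.31, adjusted p = 0.226), a 2.85-fold difference. Asns, the synthetase of asparagine, stood at 11.95, 11.96, 12.25 and 11.94 against 11.23 and 11.15, and knock-in arrays were close together with only ki/ki replicate 1 higher. Its difference was 0.84 (SE 0.14, adjusted p = 0.182), and the second probe set gave 0.94. Trib3, a pseudokinase that feeds back on ATF4, stood at 9.02, 8.81, 8.74 and 8.61 against 7.94 and 7.75. The 4 knock-in arrays again lay above wild type and close together, with a difference of 0.95 (SE 0.15, adjusted p = 0.161) and 0.53 by the second probe set. Atf3, a bZIP factor also counted among the immediate early genes, stood at 7.45, 7.30, 7.94 and 8.05 against 6.68 and 6.63, with both ki/ki arrays above both ki/+ arrays. Its difference was 1.03 (SE 0.23, adjusted p = 0.255).

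All 3 enzymes that make serine from a glycolytic intermediate were higher in all 4 arrays: Phgdh by 0.41, Psat1 by 0.61 and Psph by 1.08. They were named after their values were seen. Amino acid transporters, many of which ATF4 also targets, were split, with 4 higher and 4 lower of 17 (23.5% each, beside 9.67% and 9.61% of all genes) and a median of 0.01. Slc7a1, a carrier of arginine and lysine, was higher at 9.92, 9.50, 10.39 and 10.29 against 8.97 and 9.10. Slc7a5, a carrier of large neutral amino acids, was lower at 9.94, 9.86, 9.82 and 9.93 against 10.40 and 10.24. Trib3 was called in all 3 settings above, Asns in 2 of them and Chac1 and Atf3 with array weights.

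**Figure D4:**
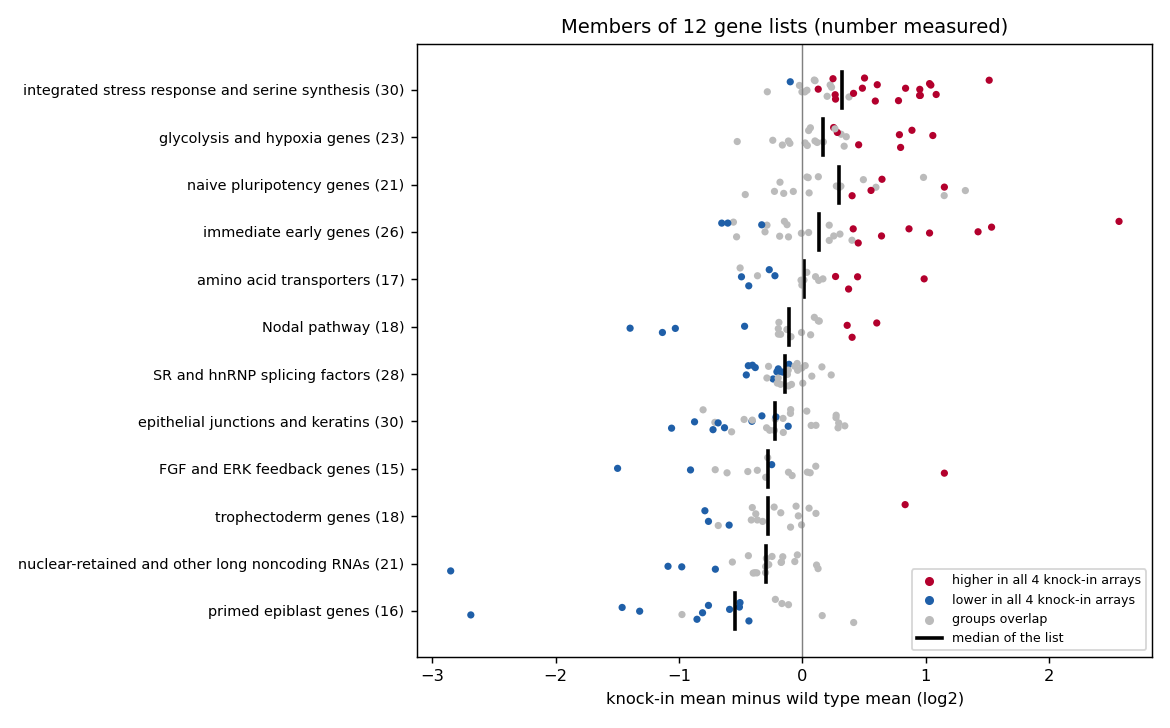
Difference between knock-in and wild type means (log2, horizontal) of each measured member of 12 gene lists, 1 point per gene, red or blue where all 4 knock-in arrays lay above or below both wild type arrays. Black bars are list medians, from 0.32 for the stress response and serine synthesis list to -0.55 for the primed epiblast list.

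Glycolysis and hypoxia genes had 7 of 23 members higher (30.4%) and 0 lower in all 4 arrays, beside 9.67% and 9.61% of all genes. The median difference was 0.17, with 0.50, 0.01, -0.07 and 0.37 in the knock-in arrays. Mxi1, a MYC antagonist induced by hypoxia, was higher by 0.79 and hexokinase Hk2 by 0.80. The phosphofructokinase Pfkp was higher by 0.89 and the glucose carrier Slc2a3 by 0.25, though another Slc2a3 probe set was lower in all 4 arrays by -0.51. Median levels of the list therefore differed between replicates of each genotype.

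Of 10 measured genes of DNA methylation and its removal, 2 (20%) were higher and 4 (40%) lower in all 4 arrays, beside 9.67% and 9.61% of all genes. The higher ones were the dioxygenases Tet1 and Tet2, while Tet3 overlapped between the groups. Tet2 stood at 9.90, 9.62, 10.00 and 9.84 against 8.80 and 8.82, with the knock-in arrays within 0.38 of each other. The difference was 1.03 (SE 0.14, adjusted p = 0.127), and 1.17 by the second probe set. Tet1 stood at 11.11, 10.79, 10.74 and 11.13 against 10.31 and 10.49, a difference of 0.54 (SE 0.16, adjusted p = 0.387). The de novo methyltransferases Dnmt3a and Dnmt3b were lower by -0.51 and -0.59, their cofactor Dnmt3l by -0.53 and Mbd3, named for its methyl-CpG-binding domain, by -0.28, all with gaps under 0.2. Of these, Dnmt3b and Mbd3 were named after their values were seen. The probe sets of Dnmt3a disagreed, from -1.28 (gap -0.81) to 0.24 (gap 0.02). Dnmt1, Uhrf1 and Mbd2 overlapped.

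The targeted locus was examined through Cdh1 itself. Cdh1 stood at 11.66, 10.62, 9.77 and 11.09 against 12.17 and 12.13, so all 4 knock-in arrays were lower, but ki/+ replicate 2 was below ki/ki replicate 2. The difference was -1.36 (SE 0.46, adjusted p = 0.443). No source used here says whether its probes lie in the replaced or the retained part of the gene, so the value does not check the genotype labels. Cdh2, the gene of N-cadherin, stood at 6.50, 7.66, 7.88 and 9.11 against 8.27 and 8.46, with groups that overlapped. Its order across the knock-in arrays was that of the feeder markers. No source used here says whether the Cdh2 probes detect the transcript of the knock-in allele. The Cdh2 values therefore do not show how much N-cadherin those cells make. Of 14 cadherins and catenins, 2 (14.3%) were higher and 2 (14.3%) lower in all 4 arrays, beside 9.67% and 9.61% of all genes, with a median of 0.01. Plakoglobin (Jup) was lower by -0.64, whereas α-catenin (Ctnna1) was higher by 0.42 and β-catenin (Ctnnb1) by 0.21. Other probe sets went the other way for Ctnna1 (-0.31, lower in all 4 arrays) or overlapped (Ctnnb1, -0.30 and -0.05).

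Of 30 measured epithelial junction and keratin genes, 9 (30.0%) were lower and 0 higher in all 4 arrays, beside 9.61% lower and 9.67% higher of all genes, with a median of -0.22. The splicing regulator of epithelial isoforms Esrp1 was lower by -0.68, the tight junction proteins F11r and Patj by -0.33 and -0.63, and keratin Krt18 by -0.87. Esrp1, F11r and Krt18 had their lowest value in ki/ki replicate 1, as Cdh1 did, and Patj in ki/+ replicate 1. A second F11r probe set overlapped between the groups, at 0.06. Trophectoderm genes had a median of -0.28, with 1 of 18 (5.56%) higher (Ets2, by 0.83) and 3 (16.7%) lower in all 4 arrays, beside 9.67% and 9.61% of all genes. The lower ones were Eomes (-0.76), Ascl2 (-0.79, with its 3 probe sets all lower) and Tfap2c (-0.59, with a gap of 0.01).

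Splicing factors of the SR and hnRNP families showed small but even differences. Of 28 measured, 10 (35.7%) were lower and 0 higher in all 4 arrays, beside 9.61% lower and 9.67% higher of all genes, and the median of -0.14 varied only from -0.16 to -0.11 among the knock-in arrays. The RNA-binding proteins Hnrnpl and Hnrnpd were lower by -0.41 and -0.38 (a second Hnrnpl probe set was higher by 0.17), Hnrnpa1 by -0.44 and the SR protein Srsf2 by -0.24.

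The 15 genes with the widest gaps on the lower side included 4 on the X chromosome, Hmgn5 among them. Pim2, a survival kinase and target of STAT3 signalling, stood at 8.25, 8.61, 8.06 and 9.11 against 10.48 and 10.47, a difference of -1.97 (SE 0.28, adjusted p = 0.130). Smarca1, an ATPase that slides nucleosomes, stood at 6.55, 6.28, 6.40 and 6.62 against 7.72 and 7.80, a difference of -1.30 (SE 0.14, adjusted p = 0.0953). Knock-in arrays did not come within 1 log2 of wild type in either gene. Fndc3c1 was lower by -1.68. Of 19 measured LIF and STAT3 targets, 4 (21.1%) were higher and 1 (5.26%) lower in all 4 arrays. Over all genes these shares were 9.67% and 9.61%. The median of that list was 0.22, with 0.07, -0.004, -0.01 and 0.55 in the knock-in arrays. Pim3, another Pim kinase, stood at 11.92, 11.10, 11.60 and 11.48 against a wild type mean of 10.69. The chemokine Ccl8 (-1.46), the ubiquitin-like modifier Ubd (-1.73) and the chemokine receptor Cxcr4 (-1.30) are known from immune cells. Zp3 (-1.28), a protein of the egg coat, Vrtn (-1.37), Pmaip1 (-1.31, the p53 target Noxa), Clca3b (-1.27) and Tchh (-1.21) completed the 15. Tchh was the last taken, with a gap of -0.91, and the next gene, Sfmbt2, had -0.90. Tchh stood at 3.50, 3.08, 3.61 and 3.73 against 4.74 and 4.64, so it passed the filter only through the wild type arrays. Clca3b was near the filter's minimum in the knock-in arrays, at 4.11, 3.76, 4.32 and 3.81 against 5.23 and 5.30. Vrtn (4.86, 4.64, 4.63 and 5.07) and Cxcr4 (4.37, 4.85, 4.80 and 4.64) were also low in those arrays.

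Where genes lie was compared with how they differed. Chromosome 8, which holds Cdh1, had 177 of 866 measured genes lower in all 4 arrays (20.4%) and 44 higher (5.08%), beside 9.61% and 9.67% of all genes. Its median was small and below 0 in each knock-in array, at -0.03, -0.11, -0.12 and -0.09. Lower genes made up 14.9% to 24.9% of each of 5 consecutive segments of the chromosome. Among the 20 measured neighbours of Cdh1, 6 were lower and 1 higher, beside 20.4% and 5.08% of the chromosome's genes. Their median difference was -0.15, beside -0.09 over the chromosome. Lower genes were found in each segment, and whether the neighbours of Cdh1 differ from the rest was not tested.

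Chromosome 7 leaned to the other side, with 194 of 1319 genes higher (14.7%) and 78 lower (5.91%), but its medians of 0.04, 0.16, 0.15 and -0.08 were not shared by all 4 knock-in arrays. Chromosome 11 stood apart only in ki/+ replicate 2, with a median of 0.15. On the X chromosome 54 of 541 genes (9.98%) were lower and 36 (6.65%) higher in all 4 arrays, beside 9.61% and 9.67% of all genes. At a gap above 0.5, the lower share was 0.545% of all genes and 1.5% of chromosome 8. At that gap 10 X-linked genes (1.85%) were lower and 1 (0.185%) higher, the pseudoautosomal Erdr1. The 10 lower ones included Hmgn5, Pim2, Smarca1, Rlim, Nexmif and Phf6. The median of X-linked genes was -0.13, -0.15, 0.22 and -0.07 in the 4 knock-in arrays, so ki/ki replicate 1 differed from the others. Chromosome copy number was not measured here.

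**Figure D5:**
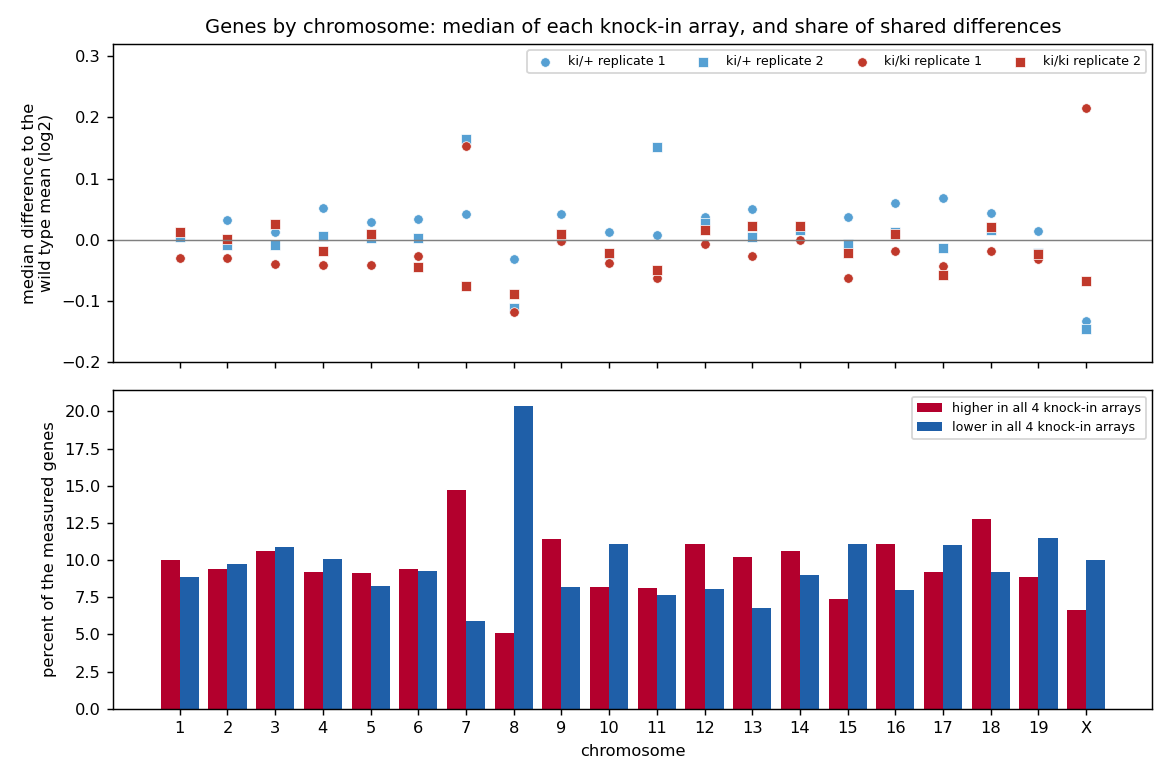
Median difference to the wild type mean (log2) of each knock-in array by chromosome (top), and percent of measured genes higher or lower in all 4 knock-in arrays (bottom). Chromosome 8 is below 0 in all 4 arrays, with 20.4% of its genes lower, while chromosomes 7, 11 and X differ between knock-in arrays.

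Agreement between probe sets of the same gene was examined for the 7896 genes with at least 2 kept probe sets. All probe sets were higher in all 4 arrays for 140 genes (1.77%) and lower for 198 (2.51%), and they were on opposite sides in 250 (3.17%). Ranked by the smallest gap among a gene's probe sets, Gli2, Tet2, Egr2, Fgf17 and Arrdc4 came first on the higher side. On the lower side they were Fgf5, Pou3f1, Slc40a1, Tbc1d9 and 2610037D02Rik. Slc40a1, the iron exporter ferroportin, was lower by -2.33 and -2.19 in its probe sets. Myb, a transcription factor of progenitor cells, had 3 probe sets lower by -1.14 to -0.94.

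Genes higher with a gap above 0.5 were longer in the genome, with a median of 43.3 kb over 66 genes of known length, than those lower, with 14.9 kb over 90. The median of all 16576 measured genes of known length was 20.8 kb. The length was not used to choose them. Wild type levels had a median of 7.52 in the higher set and 8.23 in the lower set, against 7.08 over all genes.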

How the data were processed

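RNA of mouse ES cells was measured on 6 Affymetrix arrays, 2 for each of 3 genotypes. Per the series design text, the authors used GCRMA with quantile normalization, simpleaffy for quality control and limma. The submitters' processing notes also name GCRMA and limma, with no version. The authors deposited linear intensities, with medians of 50.0 to 53.3 per array, and log2 was taken here of what they deposited. Another deposited table repeated these values, with a largest difference of 0, beside 6 columns of another series, which were not used. The number of arrays limits the precision, and no counts or depth exist for arrays.

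Probe sets named as Affymetrix controls (64) were left out, and those above log2 4 in at least 2 arrays were kept. In the supplied platform annotation, 34958 of all probe sets had 1 symbol, 932 had several and 9211 were unnamed, and 34754 were found in the RefSeq gene table of GRCm38.p6, which also gave chromosomes, lengths and promoters. Tests used limma 3.58.1 in R 4.3.3 with 1 coefficient, knock-in minus wild type, 4 residual and 3.20 prior degrees of freedom, and Benjamini-Hochberg adjustment over 37950 probe sets. The method was tested on simulated data in which both groups had the same spread. Unlike those, the knock-in and wild type arrays here differ in spread, which the simulation did not cover. Summaries and plots used pandas 2.3.3 and matplotlib 3.10.9.

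Named genes are the 15 per direction with the largest gap, since 0 passed the threshold, a set of 23 genes whatever their values, and up to 4 members by gap of each list described. Lists (44, with 702 of 822 genes measured) are described by counts and medians, without a test. Members, lists and named genes were chosen with earlier results of these data known, and support nothing independently. Replicate numbers in the labels were checked for pairing: differences between replicates 1 and 2 correlated at -0.04, 0.14 and 0.06 between genotypes. The arrays were therefore not treated as paired, but with 2 arrays per genotype these values cannot exclude pairing. The arrays carry no date or batch label. Alternatives were a second quantile step, a filter at log2 6 or none, adding 16 before the log, a trended and robust prior, a test against a limit of 0.5, array weights, the feeder marker median as a covariate, genotype as the term, the replicate block, and leaving out each array in turn. Array weights and the feeder covariate were known from earlier results to matter.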

Additional observations from a re-analysis of the deposited data

Results flagged for a closer look

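Among the 4 knock-in arrays, single values far from the other 3 were looked for with Dixon's ratio of the gap to the range, against its critical value for 4 samples. In Gli2 (0.919), Egr2 (0.888), Fgf5 (0.853), Ctnnb1 (0.918), Dusp4 (0.870), Jup (0.981) and Mirg (0.952), the array apart was ki/ki replicate 2. In Asns (0.933) and Dnmt3a (0.845) it was ki/ki replicate 1. List medians with such an array were those of the Hedgehog pathway (0.850, ki/ki replicate 2) and the HMGN proteins (0.931, ki/+ replicate 1). Chance alone gives such a ratio in about 1 of 20 groups, and the values were not adjusted for the number of genes and lists examined.

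The median of the immediate early genes differed between ki/ki and ki/+ by 0.76 log2, with both ki/+ arrays below wild type, ki/ki replicate 2 above it and ki/ki replicate 1 at it (0.00048). The amino acid transporters differed by 0.22 log2, with both ki/+ arrays below wild type and both ki/ki arrays above it. Neither difference was tested. The control probe sets for 18S ribosomal RNA, which entered no comparison, were higher by 4.23 log2 in the knock-in arrays, in 4 of 4 arrays.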

How the results depend on the processing

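The number of probe sets past an adjusted p of 0.05 was 0, 1 after a further quantile normalization, 162 with the feeder covariate and 2264 with array weights, and 0 to 502 when 1 array was left out. Only without ki/ki replicate 2 did that last count exceed 0. Fitted with the replicate block, 0 passed and the smallest adjusted p was 0.159. The 7533 shared probe sets became 4830 with a minimum of log2 6, and 9325 to 15122 without 1 array, which leaves fewer arrays to agree. Those with a gap above 0.5 numbered 378 and 470 to 1134 without 1 array, and those above 1 numbered 34, 22 with 16 added before the log, and 47 to 131 without 1 array. Over the 95 genes named and 16 settings, 1377 of 1516 values kept direction and side of the threshold, 128 became calls and 11 changed sign, in 4 genes near 0. Without 1 array Pou5f1 ranged from -0.11 to 0.053, Sox2 from -0.070 to 0.10, Hmgn1 from -0.086 to 0.0049 and Hmgn3 from -0.35 to 0.10. Sox2 became -0.025 with the feeder covariate. Hmgn1 became 0.0054 with that covariate and 0.045 after quantile normalization. With 0 calls to begin with, no call could be lost. The cause was not tested. Leaving out an array of wild type leaves 1, whose spread is then taken from the knock-in arrays.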
